A study of Mus musculus with 10 samples.

Results

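Microglial transcription factors are represented by 9 genes, Sall1, Spi1, Irf8, Mef2c, Runx1, Cebpa, Bhlhe40, Bhlhe41 and Mitf. They were chosen by symbol, as factors known to shape the identity or state of microglia, out of 24421 gene symbols listed in the deposited counts. All 9 were listed, and all 9 were among the 18727 genes that passed the filter on low counts.

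Transcription factors bind short DNA motifs in promoters and enhancers and set which genes a cell transcribes. In microglia a general macrophage program depends on the ETS factor PU.1, encoded by Spi1, together with IRF, RUNX and C/EBP partners, and signals of the brain add factors such as Sall1 and MEF2C that separate microglia from other macrophages. Factors of the MiT and class E basic helix-loop-helix families bind E-box motifs and are tied to lysosomal and lipid-handling programs in phagocytes.

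RNA was sequenced from microglia-enriched cells of the cortex of 9-month-old mice: WT (n = 3 libraries), APP/PS1 (n = 4) and APP/PS1+N-AS (n = 3). APP/PS1 mice carry human transgenes with disease mutations, whose promoter the methods do not name, and develop amyloid plaques. The APP/PS1+N-AS mice had received daily subcutaneous N-AS (N-acetyl sphingosine) at 30 mg/kg from 7 months of age, over 8 weeks, and the APP/PS1 mice compared with them had been given vehicle. The study asks how this lipid changes microglia in the amyloid model. Each library came from a pair of mice, so a library is the replicate. Cells were freed with papain and enriched on a density gradient without sorting, so RNA of other cell types is present.

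Total counts were 8805804, 17102559 and 19133654 in WT libraries 1 to 3. They were 12971720, 12474941, 13129332 and 19432075 in APP/PS1 libraries 1 to 4, and 16500725, 19035817 and 12755933 in APP/PS1+N-AS libraries 1 to 3. The lowest count of any member was 39 reads, for Spi1 in WT 1. Expression is given as CPM, counts scaled to a common library size with TMM factors, and replicate numbers carry no order.

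Sex-linked transcripts did not follow the groups evenly, although the methods state that only male mice were used. Xist, the RNA that coats the silenced X chromosome of females, had 37, 37 and 33 reads in WT, 5253, 5831, 8477 and 11188 reads in APP/PS1 and 7024, 8848 and 29 reads in APP/PS1+N-AS. The Y-linked genes Ddx3y, Eif2s3y, Kdm5d and Uty together had 1492, 3181 and 3700 reads in WT, 495, 690, 13 and 13 in APP/PS1 and 470, 863 and 2377 in APP/PS1+N-AS. The difference in sex-linked transcripts and the difference in genotype therefore cannot be told apart between WT and APP/PS1, and APP/PS1+N-AS 3 stands apart from the other libraries of its group. App, the mouse symbol of one transgene, was at 1622 ± 188 CPM in WT (mean ± SD, n = 3) and 1249 ± 137 CPM in APP/PS1 (n = 4), so this symbol does not mark the transgenic groups.

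The label of the cells was checked against 14 microglial markers, all of them detected in every library. Their summed level was 832, 985 and 1209 CPM in WT, 2682, 2749, 3397 and 3186 CPM in APP/PS1 and 1986, 2136 and 1622 CPM in APP/PS1+N-AS. The WT libraries thus had the least microglial marker RNA and the APP/PS1 libraries the most, without overlap between any of the 3 groups. In bulk RNA, fewer microglia and less RNA of a gene per microglial cell cannot be told apart, and this holds for every member.

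Markers of other cells differed between libraries. The 8 neuronal markers summed to 1479, 1737 and 4928 CPM in WT, 2232, 2069, 1939 and 2313 CPM in APP/PS1 and 2025, 1999 and 2851 CPM in APP/PS1+N-AS (most abundant Snap25), so WT 3 was the most neuronal library. The 8 oligodendrocyte markers summed to 6812, 6965 and 2381 CPM in WT, 4707, 4166, 1943 and 1996 CPM in APP/PS1 and 3836, 3937 and 2874 CPM in APP/PS1+N-AS. The 4 choroid plexus markers summed to 404, 403 and 8.20 CPM in WT and 875, 1208, 881 and 697 CPM in APP/PS1. In APP/PS1+N-AS they summed to 615, 825 and 7.98 CPM. All APP/PS1 sums were thus above all WT sums. Ttr was at 1.74 CPM in WT 3 and 0.665 CPM in APP/PS1+N-AS 3, and it was the most abundant of them in the other 8 libraries. Library numbers in the labels run from 1 to 6 for replicates 1 and 2 of each group and from 7 to 10 for the rest, so WT 3, APP/PS1 3, APP/PS1 4 and APP/PS1+N-AS 3 form the second set.

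Levels of different members are compared as CPM per kb of annotated exon. On this per-length scale Mef2c had the highest mean level in all 3 groups, 23.8 in WT, 22.7 in APP/PS1 and 21.2 in APP/PS1+N-AS. In WT, Bhlhe40 came next with 14 CPM per kb, followed by Sall1 with 7.26, Bhlhe41 with 5.64 and Cebpa with 4.37. Mitf, Irf8, Spi1 and Runx1 closed the WT order between 2.43 and 1.88 CPM per kb, and each of these 4 overlapped its neighbour in the order. Mef2c and Bhlhe40 also overlapped in WT, as did Bhlhe41 and Cebpa.

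In APP/PS1 the per-length order was different at Cebpa, which stood second with 15.8 CPM per kb and overlapped Bhlhe40 with 12.6. Bhlhe40 in turn overlapped Sall1 with 9.77 CPM per kb. Bhlhe41 with 6.56, Irf8 with 6.24, Spi1 with 5.45 and Mitf with 4.08 each overlapped the next, and Runx1 was lowest with 2.97, below every Mitf value. In APP/PS1+N-AS the per-length order ran Mef2c, Bhlhe40 with 13.5, Cebpa with 10.4, Sall1 with 8.71, Bhlhe41 with 5.95, Irf8 with 4.46, Spi1 with 3.53, Runx1 with 3.05 and Mitf with 2.72 CPM per kb. There, Bhlhe40, Cebpa and Sall1 formed a chain of overlapping neighbours, and so did the members from Bhlhe41 down to Mitf.

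**Figure D1:**
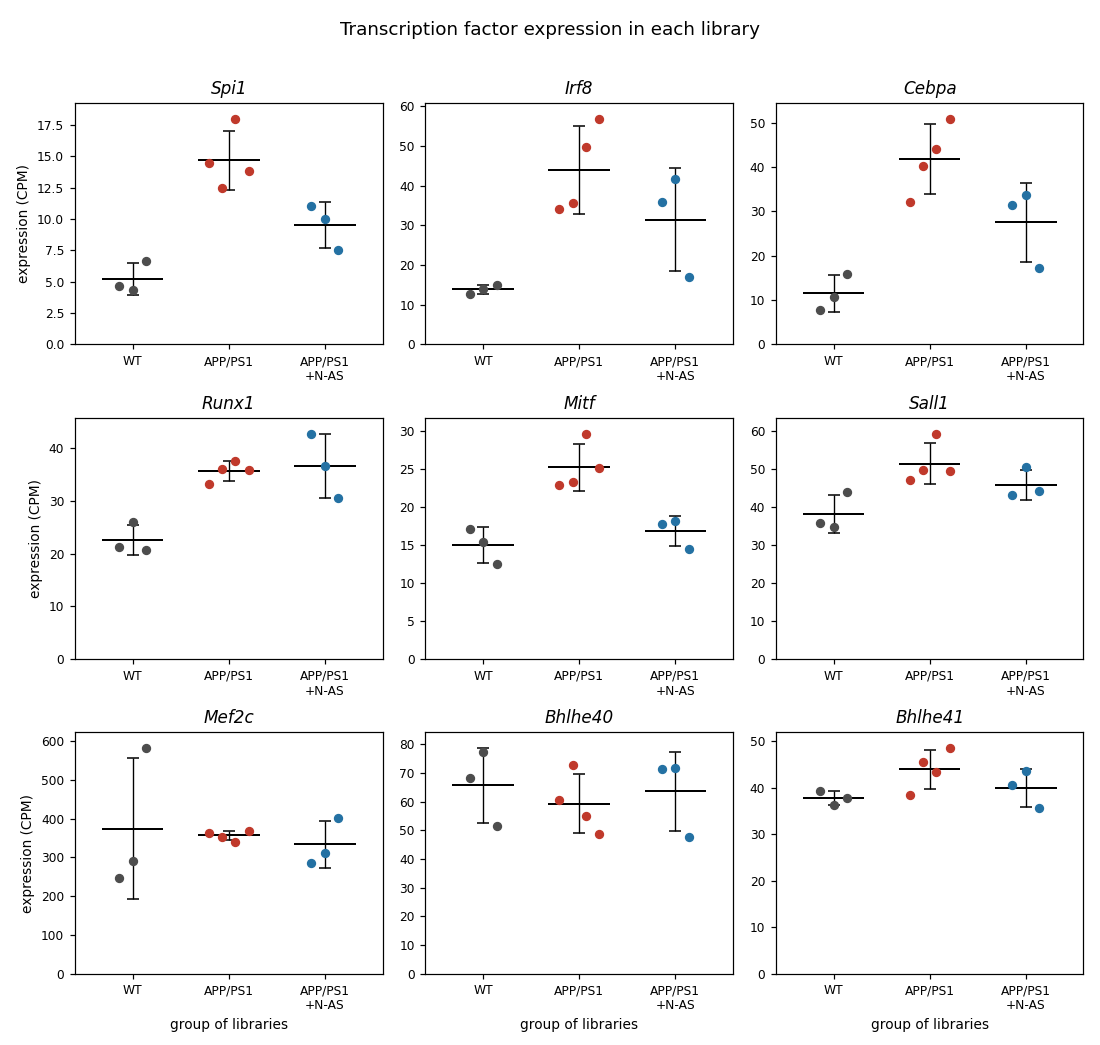
Expression in CPM (vertical axes, each from 0) of the 9 members in every library, by group (WT n = 3, APP/PS1 n = 4, APP/PS1+N-AS n = 3), with dots for libraries and bars for the mean ± SD. Spi1, Irf8, Cebpa, Runx1, Mitf and Sall1 have all APP/PS1 dots above all WT dots, while Mef2c, Bhlhe40 and Bhlhe41 overlap.

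The comparison of APP/PS1 with WT shows how the factors differ in the amyloid model. Of the 9 members, 5 rose (Spi1, Irf8, Cebpa, Runx1 and Mitf) and 0 fell at an adjusted p under 0.05 in the quasi-likelihood test of edgeR, adjusted by Benjamini-Hochberg. Among all 18727 genes tested, 2.67% were called higher and 0.796% lower. With limma voom 5 members and 649 of all genes tested were called, and with DESeq2 6 members, Sall1 being the added one, and 1362 genes. At an unadjusted p under 0.05, 6 members were higher, against 8.3% of all genes. All APP/PS1 libraries were above all WT libraries for 6 members, the 5 called and Sall1, against 8.15% of all genes tested. The median log2 fold change was 0.66 over the members and −0.07 over all genes tested.

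The first group of members are drivers of the myeloid lineage. Spi1 encodes PU.1, the ETS factor without which macrophages and microglia do not form. It was at 4.64, 4.33 and 6.65 CPM in WT, 14.5, 12.5, 18.0 and 13.8 CPM in APP/PS1 and 11.1, 9.97 and 7.54 CPM in APP/PS1+N-AS. All APP/PS1 values were above all APP/PS1+N-AS values, and those were above all WT values. Spi1 rose 2.79-fold from WT to APP/PS1 (95% CI 2.01 to 3.88; log2 fold change 1.48, SE 0.21; edgeR adjusted p = 0.00427), higher in 4 of 4 APP/PS1 libraries than in any WT library.

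Irf8, an interferon regulatory factor that pairs with PU.1 on composite sites and is needed for mature microglia, was at 12.7, 14 and 15.0 CPM in WT, 34.0, 35.5, 49.7 and 56.8 CPM in APP/PS1 and 35.8, 41.7 and 16.9 CPM in APP/PS1+N-AS. WT values lay close together, and APP/PS1+N-AS 3 was the 1 library of its group near them. Irf8 rose 3.16-fold in APP/PS1 (95% CI 2.01 to 4.97; log2 fold change 1.66, SE 0.30; edgeR adjusted p = 0.0134). The call was lost without WT 1 (adjusted p = 0.0586) or without WT 2 (0.0516), and with a replicate block, given further below.

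Cebpa, the C/EBP family member that directs myeloid progenitors, was at 7.84, 10.8 and 16.0 CPM in WT, 32.0, 40.2, 44.1 and 50.8 CPM in APP/PS1 and 31.5, 33.8 and 17.3 CPM in APP/PS1+N-AS. The lowest APP/PS1 library was above the highest WT library, and APP/PS1+N-AS 3 was just above WT 3. Cebpa rose 3.58-fold in APP/PS1 (95% CI 2.29 to 5.58; log2 fold change 1.84, SE 0.29; edgeR adjusted p = 0.00685).

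Runx1, a Runt-domain factor of blood formation that works with PU.1 in early microglia, was at 21.3, 25.9 and 20.7 CPM in WT, 33.2, 36.0, 37.6 and 35.8 CPM in APP/PS1 and 42.8, 36.7 and 30.5 CPM in APP/PS1+N-AS. Both APP/PS1 groups were above WT in every library and overlapped each other. Runx1 rose 1.58-fold in APP/PS1 (95% CI 1.27 to 1.96; log2 fold change 0.66, SE 0.14; edgeR adjusted p = 0.0304). This call rests on single libraries: the adjusted p was 0.104 without WT 1, 0.0641 without WT 3, 0.0795 without APP/PS1 2, 0.0983 without APP/PS1 3, 0.0862 without APP/PS1 4 and 0.0637 without APP/PS1+N-AS 2. A replicate block, given further below, also ended the call.

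Mitf, the MiT family factor best known from pigment cells and osteoclasts, where it drives lysosomal genes, was at 17.1, 15.5 and 12.5 CPM in WT, 23.0, 23.3, 29.7 and 25.1 CPM in APP/PS1 and 17.9, 18.1 and 14.6 CPM in APP/PS1+N-AS. The APP/PS1 libraries stood above both other groups, which overlapped. Mitf rose 1.69-fold in APP/PS1 (95% CI 1.33 to 2.14; log2 fold change 0.76, SE 0.16; edgeR adjusted p = 0.0254). The call was lost without WT 2 (adjusted p = 0.0690), APP/PS1 3 (0.0768) or APP/PS1 4 (0.0724), and in a fit of WT and APP/PS1 alone (0.0581). A replicate block, given further below, also ended it.

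Sall1 and Mef2c are tied to the microglial identity that brain signals maintain. Sall1, a zinc-finger factor that within the macrophage lineage is typical of microglia, was at 35.9, 34.8 and 44.0 CPM in WT, 47.1, 49.7, 59.3 and 49.5 CPM in APP/PS1 and 43.0, 50.4 and 44.1 CPM in APP/PS1+N-AS. APP/PS1 was above WT in every library, with APP/PS1+N-AS overlapping both. The fold change from WT to APP/PS1 was 1.34 (95% CI 1.10 to 1.65; log2 fold change 0.43, SE 0.13) and missed the threshold (edgeR adjusted p = 0.122), though it passed without WT 3 (0.0429).

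Mef2c, a MADS-box factor of microglia that neurons and muscle also express, was at 247, 292 and 582 CPM in WT, 364, 354, 340 and 369 CPM in APP/PS1 and 286, 312 and 403 CPM in APP/PS1+N-AS. WT 3 was the highest library, above all 9 others, and the 2 other WT libraries were below all of APP/PS1. WT 3 also had the most neuronal marker RNA, 4928 CPM, and the part of neuronal RNA in the Mef2c values was not tested. Mef2c had a log2 fold change of −0.07 (SE 0.27; edgeR adjusted p = 0.929) from WT to APP/PS1, which was 0.41 without WT 3 (0.191), and its sign was positive with voom and quantile normalization (0.08).

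Bhlhe40 and Bhlhe41 encode related E-box repressors that also act in the circadian clock and in macrophage proliferation. Bhlhe40 was at 68.3, 77.2 and 51.6 CPM in WT, 60.8, 72.9, 55.1 and 48.7 CPM in APP/PS1 and 71.5, 71.9 and 47.7 CPM in APP/PS1+N-AS. All 3 groups overlapped, and in each the libraries of the second numbered set were the lowest. The log2 fold change of Bhlhe40 from WT to APP/PS1 was −0.15 (SE 0.20; edgeR adjusted p = 0.765).

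Bhlhe41 was at 39.3, 36.4 and 37.9 CPM in WT, 38.6, 45.6, 43.4 and 48.6 CPM in APP/PS1 and 40.5, 43.7 and 35.6 CPM in APP/PS1+N-AS. All 3 groups overlapped. Its log2 fold change from WT to APP/PS1 was 0.22 (SE 0.12; edgeR adjusted p = 0.396).

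For the 5 members that rose, every APP/PS1 library was above every WT library. Positive differences within each of the 2 sets of library numbers follow from that, so only their sizes are described. As differences of mean log2 CPM within numbers 1 to 6 and within 7 to 10, Spi1 gave 1.56 and 1.23, Irf8 1.37 and 1.81, and Cebpa 1.95 and 1.56. Runx1 gave 0.56 and 0.82, and Mitf 0.50 and 1.12. Of the members not called, Sall1 (0.45 and 0.30) and Bhlhe41 (0.15 and 0.28) were also positive in both sets. Mef2c (0.42 and −0.72) and Bhlhe40 (−0.13 and 0.004) changed sign. The second set holds a single WT library. With the log2 level of the Y-linked genes as a covariate, 0 of the 9 members passed the threshold by edgeR. The log2 fold changes were then 1.22 for Spi1, 0.98 for Irf8, 1.39 for Cebpa, 0.53 for Runx1 and 0.52 for Mitf. The summed Y-linked level was 177 to 197 CPM in WT and 0.619 to 57.0 CPM in APP/PS1, so it largely goes with genotype. This fit therefore cannot separate the covariate from genotype, and neither the lost calls nor the signs bear on sex.

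**Figure D2:**
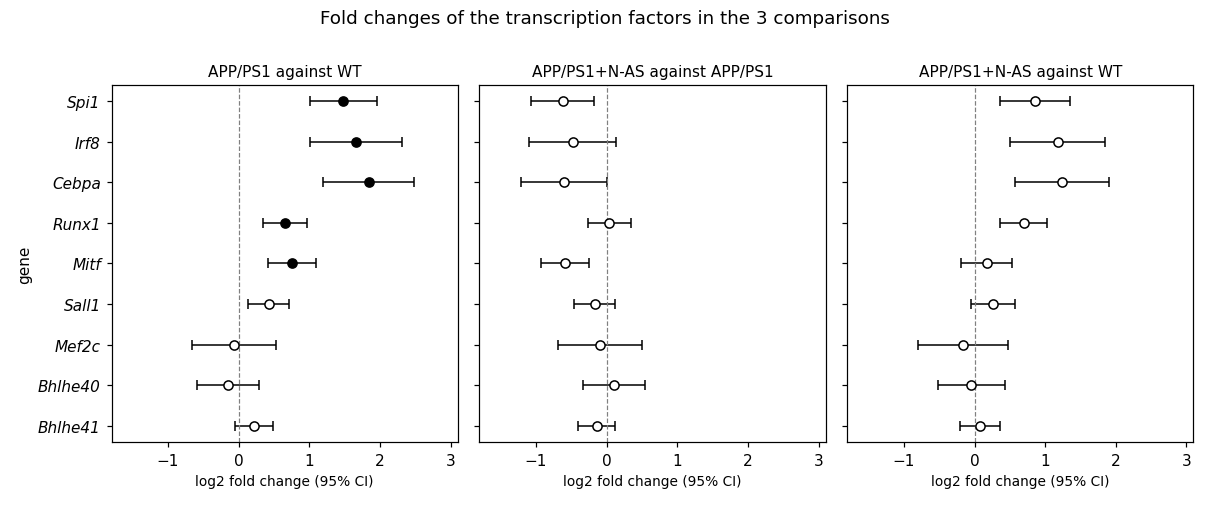
Log2 fold changes (horizontal axes) of the 9 members in the 3 comparisons, with 95% confidence intervals from the edgeR fit and filled dots for adjusted p under 0.05. The filled dots are Spi1, Irf8, Cebpa, Runx1 and Mitf in APP/PS1 against WT, and the other 2 panels hold none.

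The comparison of APP/PS1+N-AS with APP/PS1 asks what N-AS changes in the amyloid model, and it uses the same APP/PS1 libraries as the comparison above. By edgeR 0 of the 9 members were called in either direction, and 0 of all 18727 genes tested (0%). By voom the counts were also 0 and 0, and by DESeq2 0 members and 79 genes. At an unadjusted p under 0.05, 2 members, Spi1 and Mitf, were lower, against 4.05% of all genes tested, and 1653 genes differed in either direction. The same 2 members had all APP/PS1+N-AS libraries below all APP/PS1 libraries, against 6.46% of all genes. The median log2 fold change was −0.17 over the members and −0.01 over all genes tested.

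Mitf had a fold change of 0.667 (95% CI 0.526 to 0.845; log2 fold change −0.58, SE 0.15; edgeR adjusted p = 0.494), and its APP/PS1+N-AS mean of 16.8 ± 1.99 CPM lay near the WT mean of 15.0 ± 2.32 CPM (n = 3 each). Spi1 had a fold change of 0.649 (95% CI 0.475 to 0.887; log2 fold change −0.62, SE 0.20; edgeR adjusted p = 0.502), with its APP/PS1+N-AS mean of 9.52 ± 1.81 CPM between WT and APP/PS1. Neither passed the adjusted threshold, in any alternative fit tried or with any library left out.

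The other lineage factors depended on 1 library. Cebpa had a log2 fold change of −0.60 (edgeR adjusted p = 0.570) and −0.35 without APP/PS1+N-AS 3 (0.756). Irf8 had −0.48 (0.648) and −0.18 without that library (0.866). In the sets of library numbers 1 to 6 and 7 to 10 the difference of mean log2 CPM was 0.15 and −1.64 for Irf8, −0.14 and −1.45 for Cebpa, −0.35 and −1.05 for Spi1 and −0.36 and −0.90 for Mitf. The second set rests on APP/PS1+N-AS 3 alone, which is also the library with 29 Xist reads, with 7.98 CPM of choroid plexus markers and with the least microglial marker RNA of its group, and the part of these differences was not tested.

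Runx1 had a log2 fold change of 0.04 (SE 0.14; edgeR adjusted p = 0.957) that was −0.01 under scaling by total counts and under quantile normalization. Its APP/PS1+N-AS libraries lay on both sides of the APP/PS1 range, and in the first and second set of library numbers the difference of mean log2 CPM was 0.19 and −0.27. Sall1 had −0.17 (0.754), Mef2c −0.10 (0.945), Bhlhe40 0.10 (0.913) and Bhlhe41 −0.14 (0.770). For these 5 members the groups overlapped.

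The comparison of APP/PS1+N-AS with WT asks which differences from WT are seen after N-AS, and it shares its libraries with both comparisons above. By edgeR 0 of the 9 members were called, while 0.176% of all genes tested were called higher and 0.0107% lower. By voom 0 members passed, and by DESeq2 3 did, Irf8 (adjusted p = 0.0410), Cebpa (0.0198) and Runx1 (0.0101), beside 20 and 187 of all genes tested. At an unadjusted p under 0.05, 4 members were higher, Spi1, Irf8, Cebpa and Runx1, against 3.64% of all genes. These 4 also had every APP/PS1+N-AS library above every WT library, against 4.9% of all genes. The median log2 fold change was 0.26 over the members and −0.04 over all genes tested.

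Cebpa had a log2 fold change of 1.24 (edgeR adjusted p = 0.233), Irf8 1.18 (0.289), Spi1 0.86 (0.284) and Runx1 0.69 (0.157). Without APP/PS1+N-AS 3, Irf8 (1.50, adjusted p = 0.0173) and Cebpa (1.51, 0.0444) passed the threshold. Mitf had 0.17 (0.912), Sall1 0.26 (0.776), Bhlhe41 0.08 (0.959), Bhlhe40 −0.04 (0.991) and Mef2c −0.16 (0.964), and the groups of each overlapped.

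Side by side, the log2 fold changes of APP/PS1 against WT, APP/PS1+N-AS against APP/PS1 and APP/PS1+N-AS against WT were 1.48, −0.62 and 0.86 for Spi1. They were 0.76, −0.58 and 0.17 for Mitf. Runx1 gave 0.66, 0.04 and 0.69 in the same order. By group means, Spi1 after N-AS lay between WT and APP/PS1, Mitf near WT and the Runx1 mean near that of APP/PS1, but the libraries of APP/PS1+N-AS were not alike. Against WT, the difference of mean log2 CPM within library numbers 1 to 6 and within 7 to 10 was 1.20 and 0.18 for Spi1, 1.53 and 0.17 for Irf8 and 1.81 and 0.11 for Cebpa. It was 0.14 and 0.21 for Mitf and 0.75 and 0.56 for Runx1, with 1 library per group in the second set. Whether these members differ from one another in their response was not tested.

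Because microglial marker RNA differed between the groups, each member was also measured against the mean log2 CPM of the 14 microglial markers in the same library. That mean was 5.42 ± 0.28 in WT, 7.12 ± 0.15 in APP/PS1 and 6.45 ± 0.27 in APP/PS1+N-AS (mean ± SD over libraries). It was thus 1.69 higher in APP/PS1 than in WT and 0.67 lower in APP/PS1+N-AS than in APP/PS1. Of the 14 markers 11 rose from WT to APP/PS1 by edgeR, and the other 3 were P2ry12, P2ry13 and Tmem119, singled out after their values were seen, with log2 fold changes of 0.36, 0.32 and 0.50. Against APP/PS1, 0 markers passed in APP/PS1+N-AS by edgeR and 10 were lower at an unadjusted p under 0.05, and against WT 2 were higher in APP/PS1+N-AS, Trem2 and Tyrobp.

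Relative to the 14 markers, the lineage factors Spi1, Irf8 and Cebpa differed by −0.21, −0.07 and 0.19 log2 units between APP/PS1 and WT, and their groups overlapped. Cebpa changed sign to −0.29 when the median of the markers replaced their mean. That change of reference shifts the difference of every member by the same amount, so Spi1 and Irf8 also became more negative with it. The other 6 members were lower relative to the markers in every APP/PS1 library than in any WT library, as were 86.5% of all genes tested, whose median relative difference was −1.74, so this is shared by most genes and not particular to these members. The relative difference was −1.83 for Bhlhe40, −1.65 for Mef2c, −1.48 for Bhlhe41, −1.26 for Sall1, −1.03 for Runx1 and −0.94 for Mitf.

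The choice of markers decides much of this. Against P2ry12, P2ry13 and Tmem119 alone, a choice made after seeing the data, the APP/PS1 minus WT difference was 1.08 for Spi1, 1.21 for Irf8 and 1.48 for Cebpa. It turned positive for Mitf, 0.34, for Runx1, 0.25, and for Sall1, 0.02. It stayed negative for Bhlhe40, −0.55, Mef2c, −0.37, and Bhlhe41, −0.20. These 3 were the markers without a call, so small differences of other uncalled genes against them follow from the choice.

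Between APP/PS1+N-AS and APP/PS1, the differences relative to the 14 markers were 0.04 for Spi1, 0.12 for Irf8, 0.03 for Cebpa and 0.09 for Mitf, with overlapping groups. Against the 3 markers these 4 turned negative, to −0.33, −0.26, −0.35 and −0.29. For the other 5 members every APP/PS1+N-AS library was above every APP/PS1 library relative to the 14 markers, by 0.76 for Bhlhe40, 0.69 for Runx1, 0.56 for Mef2c, 0.53 for Bhlhe41 and 0.50 for Sall1. The same held for 60.5% of all genes tested, with a median of 0.67. Against the 3 markers these differences stayed positive, at 0.38, 0.32, 0.18, 0.15 and 0.13.

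**Figure D3:**
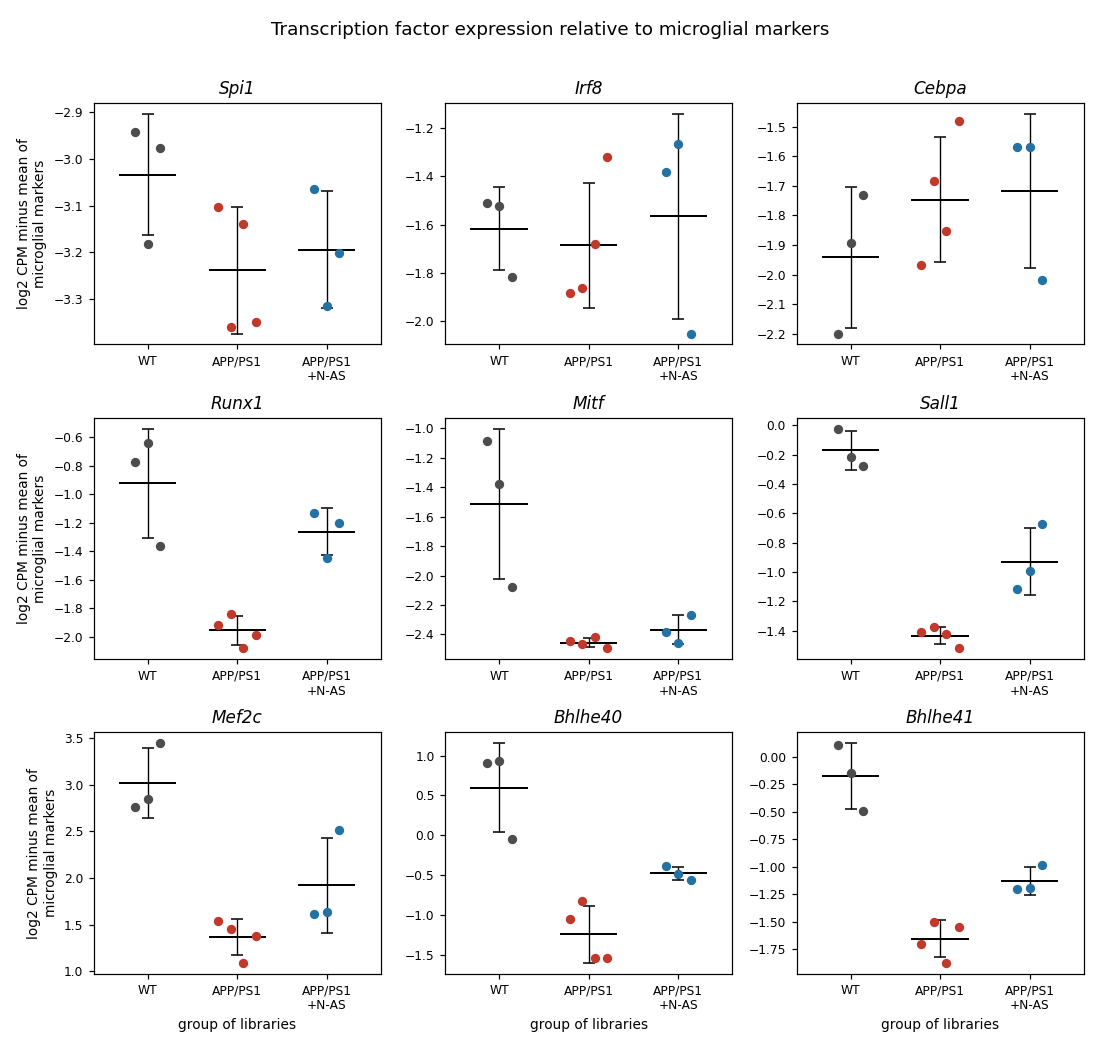
Log2 CPM of each member minus the mean log2 CPM of 14 microglial markers in the same library (vertical axes, log2 units, scaled per panel), with dots for libraries and bars for the mean ± SD. Spi1, Irf8 and Cebpa overlap between APP/PS1 and WT. The other 6 members are lower in every APP/PS1 library than in any WT library, as were 86.5% of all genes tested.

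Correlations of log2 CPM over the 10 libraries describe which members varied together, with group differences and library composition included. The mean of the microglial markers had r = 0.985 with Spi1, 0.977 with Cebpa, 0.944 with Irf8 and 0.907 with Sall1. It had r = 0.831 with Runx1, 0.815 with Mitf, 0.700 with Bhlhe41, 0.138 with Mef2c and −0.242 with Bhlhe40. Among the members, Irf8 and Cebpa had r = 0.965, Spi1 and Cebpa 0.949, Spi1 and Irf8 0.919 and Spi1 and Sall1 0.906. Bhlhe40 and Mef2c ran in opposite directions, with r = −0.673.

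Outside the 9, the genes most like each member were picked by the highest Pearson r over the 10 libraries, and r was computed again after group means were removed. For Spi1 they were Aif1 (0.986, then 0.889), Pld4 (0.984, 0.921) and Slamf9 (0.983, 0.915). For Cebpa they were 4632428N05Rik (0.994, 0.968), Ncf1 (0.991, 0.955) and Unc93b1 (0.990, 0.955), and for Irf8 Sdf2l1 (0.989, 0.973), Fermt3 (0.980, 0.927) and Myo1f (0.979, 0.959). Aif1 is one of the microglial markers.

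The genes most like Runx1 were Rnf216 (0.958, 0.908), Zfp69 (0.958, 0.724) and Gmip (0.951, 0.837). Mitf was most like Lhfpl2 (0.972, 0.862), Plcg2 (0.964, 0.896) and 2900052N01Rik (0.957, 0.867). Sall1 was most like Ulk2 (0.982, 0.979), Phpt1 (0.971, 0.960) and Bmi1 (0.965, 0.939). Of these, Plcg2 encodes a phospholipase of immune receptor signalling.

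Among the genes most like Mef2c were Got2 (0.992, 0.992) and Atp6v0a1 (0.988, 0.996), both broadly expressed in neurons. Bhlhe40 was most like Afap1l1 (0.959, 0.959), Pdgfb (0.940, 0.952) and Ppp4r1 (0.936, 0.936). Bhlhe41 was most like Anxa8 (0.938, 0.913), Tk1 (0.930, 0.885) and Ddx31 (0.928, 0.893). With 10 libraries and 18727 genes to choose from, high values of r arise for many genes.

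Relatives of the members by protein family, 37 genes, were all listed, and 32 were tested. From WT to APP/PS1 4 rose and 1 fell by edgeR, against 2.67% higher and 0.796% lower over all genes tested, with a median log2 fold change of 0.28 against −0.07 over all genes. Irf5, an interferon regulatory factor downstream of Toll-like receptors, went from 12.1 to 29.6 CPM (log2 fold change 1.28, adjusted p = 0.0140). Elf4, an ETS factor, went from 7.26 to 16.2 CPM (1.18, 0.0295), and Cebpg, a C/EBP partner, from 27.1 to 40.4 CPM (0.58, 0.0334). Both of the remaining called relatives are tied to RUNX proteins.

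Cbfb, the subunit that stabilises RUNX proteins on DNA, went from 16.3 to 22.6 CPM (0.47, adjusted p = 0.0486), and Runx1t1, a corepressor named for its fusion with RUNX1 in leukaemia, fell from 85.2 to 59.2 CPM (−0.53, 0.0431). Neither call held with any of the 10 libraries left out, when the adjusted p ranged from 0.0633 to 0.146 and from 0.0619 to 0.146. The call of Cebpg held in 1 of 10 such fits (adjusted p 0.0283 to 0.103), that of Elf4 in 5 (0.0145 to 0.101) and that of Irf5 in 8 (0.00293 to 0.0570, lost without WT 1 or WT 2). Runx3, Runx2, Mef2a and Mef2d were the most abundant relatives that were not called, at mean levels of 684, 309, 219 and 69.6 CPM over all libraries. Spic, Mef2b, Cebpe, Tfec and Bhlhe23 did not pass the filter on low counts.

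Among 32 other transcription factors of macrophages or microglia, all tested, 3 rose from WT to APP/PS1 and 0 fell by edgeR, against the same 2.67% and 0.796% of all genes, with a median log2 fold change of 0.33 against −0.07. Hif1a, the oxygen-sensing factor of glycolytic activation, went from 89.8 to 216 CPM (1.26, adjusted p = 0.00336). Ikzf1, the zinc-finger factor Ikaros, went from 20.1 to 38.7 CPM (0.94, 0.0175), and Rel, an NF-kappa B subunit, from 9.07 to 17.7 CPM (0.97, 0.0497). The call of Hif1a held with each library left out, that of Ikzf1 in 7 of 10 such fits (adjusted p up to 0.0702, lost without WT 1, WT 2 or APP/PS1 3) and that of Rel in 2 (0.0321 to 0.124). Among the most abundant of the factors not called were Zeb2, Klf6 and Atf3, at 207, 155 and 133 CPM over all libraries.

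Textbook target genes of the members, 14 in all, had 7 higher and 0 lower from WT to APP/PS1 by edgeR, against 2.67% and 0.796% of all genes. Their median log2 fold change was 1.09, against −0.07 over all genes and 1.58 over the 14 microglial markers. As for the members, fewer microglia and less RNA per microglial cell cannot be told apart for these genes or for the 2 lists above. Of the targets of Spi1 and its partners, Cd68, a lysosomal glycoprotein, went from 8.33 to 70.4 CPM (3.08, adjusted p = 0.000379), Cybb, an oxidase subunit, from 3.73 to 20.9 CPM (2.53, 0.00324), and Csf1r, the receptor that microglia need to survive, from 194 to 485 CPM (1.32, 0.00475). Csf3r (1.25, 0.0257), Itgam (1.20, 0.00325) and Fcgr1 (1.20, 0.0224) also rose, the first and last of them losing the call without WT 2, APP/PS1 3 or APP/PS1 4 (adjusted p up to 0.0909 and 0.0864), and Fcgr1 also without WT 1. Of the 5 targets of Mitf, Gpnmb, a lysosomal and surface glycoprotein, went from 2.64 ± 3.08 CPM (mean ± SD, n = 3) to 68.6 ± 50.1 CPM (n = 4; 4.94, 0.00679). With 1 library left out its log2 fold change ranged from 4.27 to 6.27 and the call held. The other targets of Mitf, Acp5, Ctsk, Oscar and Atp6v0d2, known from osteoclasts, were not called. Csf1r and Itgam are also in the list of microglial markers, and Msr1, Tlr4 and Csf2ra were not called.

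With the Y-linked covariate, Cd68 alone of the genes called in these 3 lists kept its call from WT to APP/PS1. The adjusted p was then 0.113 for Hif1a, 0.105 for Gpnmb (log2 fold change 3.71), 0.143 for Csf1r, 0.0571 for Cybb and 0.0995 for Itgam, which kept the call in the other 11 alternative fits. The other called genes lost it in 2 or more alternatives.

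In APP/PS1+N-AS against APP/PS1, 0 relatives, 0 other factors and 0 targets were called by edgeR or voom, and DESeq2 called Itgam alone among the targets. At an unadjusted p under 0.05 there were 1 higher and 2 lower relatives, 0 and 2 other factors and 0 and 5 targets, against 4.78% higher and 4.05% lower over all genes tested. In APP/PS1+N-AS against WT, Cd68 alone was called among these lists (log2 fold change 2.33, edgeR adjusted p = 0.0160). It missed the threshold without WT 1, WT 2, APP/PS1+N-AS 1 or APP/PS1+N-AS 2 (adjusted p up to 0.127), with the replicate block and with the 2 groups alone (up to 0.161).

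The remaining marker lists bear on which cells contributed RNA. Astrocyte markers, 7 genes led by Slc1a2, summed to 2222 to 3910 CPM, and Gfap, named after its value was seen, was the 1 marker called, going from 14.7 to 735 CPM from WT to APP/PS1 and also higher in APP/PS1+N-AS than in WT. Of the oligodendrocyte markers Cnp, named in the same way, was the 1 called and fell from 251 to 78.5 CPM from WT to APP/PS1. At an unadjusted p under 0.05 by edgeR, 6 of these 8 markers were lower there, against 8.9% of all genes tested. Their median log2 fold change was −1.20, against −0.07 over all genes. None of the 6 endothelial (451 to 1239 CPM, led by Flt1), 4 mural (184 to 719, Acta2), 3 precursor (59.4 to 94.3, Cspg4), 8 neuronal and 4 choroid plexus markers was called by edgeR in any comparison.

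Markers were also summed for other blood and border cells, in which Spi1, Irf8, Cebpa and Runx1 are also known to be expressed. The 6 border macrophage markers summed to 23.3 to 50.5 CPM (most abundant Mrc1) and the 4 monocyte markers to 5.11 to 16.6 CPM (Ly6c2), with the monocyte marker Plac8 at 0 in APP/PS1+N-AS 1 and in APP/PS1+N-AS 3. The 7 lymphocyte markers summed to 45.2 to 158 CPM (Cd3d) and the 5 neutrophil markers to 2.95 to 17.0 CPM (S100a9) except for 93.2 CPM in APP/PS1 3. Cd3d alone was at 35.1 to 144 CPM and made up most of the lymphocyte sum in every library. None of the tested genes of these 4 lists was called by edgeR in any comparison, and their part in the member values was not tested.

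The genes lie on several chromosomes, given by GENCODE M21 on GRCm38. Sall1 is at chr8:89027235-89044162 on the minus strand and Irf8 at chr8:120736358-120756694 on the plus strand, far apart on the same chromosome. Mitf (chr6:97807052-98021349, plus), Bhlhe40 (chr6:108660629-108666925, plus) and Bhlhe41 (chr6:145858243-145865558, minus) share chromosome 6. Spi1 is at chr2:91082390-91115756 (plus), Mef2c at chr13:83504034-83667080 (plus), Runx1 at chr16:92601466-92826149 (minus) and Cebpa at chr7:35119293-35121928 (plus).

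Exons of Runx1, Cebpa, Bhlhe40 and Bhlhe41 overlap exons of a gene on the opposite strand, Gm26626, Gm45091, 0610040F04Rik and Gm43909 in that order. Since the counting strand is not stated, reads of these 4 members and of the overlapping genes cannot be told apart in the overlaps. Irf8 and Mitf overlap Gm20388 and Gm15531 without shared exon bases. Spi1, Sall1 and Mef2c overlap no annotated gene.

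Promoters, from 250 bases before to 50 after each start, were taken from a prepared set of RefSeq starts (GRCm38.p6) for 7 of the 9 members. The set at hand had no entry for Spi1 and Bhlhe40, so their promoters were not searched. There were 3 promoters each for Sall1, Mef2c and Mitf, 2 each for Irf8 and Runx1 and 1 each for Cebpa and Bhlhe41. Both strands were searched for letters of motifs bound by the members' families. The letters GAGGAAGT (PU.1, in 3.20% of 32851 promoters of 300 bases) and GAAANNGAA (IRF, 8.56%) were in none of the members' promoters. The letters CACGTG (E-box, 7.15%) were in 1 promoter each of Runx1 and Bhlhe41, TGTGGT (RUNX, 16.8%) in 1 each of Runx1 and Mitf, TTGCNNAA (C/EBP, 10.8%) in 2 of Mitf, and CTANNNNTA (MEF2, 21.0%) in 1 each of Cebpa and Mef2c. The promoters of Irf8 and Sall1 held none of the 6.

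Shown are the 250 bases before the start for promoters of 3 members that rose together in APP/PS1 and hold such letters, 5′ to 3′ on the strand of the gene, with matches on either strand in capitals. The Cebpa stretch is chr7:35119043-35119292 (plus), with MEF2 letters. The Runx1 stretch is chr16:92826075-92826324 (minus), with the E-box, and its RUNX letters lie after the start and are not shown. The Mitf stretch is chr6:97806808-97807057 (plus), with C/EBP letters followed by RUNX letters read on the other strand. A match describes the letters only, and the matches shown do not overlap each other.
Cebpa: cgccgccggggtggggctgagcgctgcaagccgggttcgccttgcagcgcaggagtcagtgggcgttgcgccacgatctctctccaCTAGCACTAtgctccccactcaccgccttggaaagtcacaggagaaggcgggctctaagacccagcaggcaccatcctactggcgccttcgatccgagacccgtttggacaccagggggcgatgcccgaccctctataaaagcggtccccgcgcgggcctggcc
Runx1: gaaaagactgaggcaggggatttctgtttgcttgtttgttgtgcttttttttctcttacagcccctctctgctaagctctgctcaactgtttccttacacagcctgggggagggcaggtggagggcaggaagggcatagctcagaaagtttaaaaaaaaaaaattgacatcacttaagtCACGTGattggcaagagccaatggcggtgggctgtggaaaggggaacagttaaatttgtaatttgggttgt
Mitf: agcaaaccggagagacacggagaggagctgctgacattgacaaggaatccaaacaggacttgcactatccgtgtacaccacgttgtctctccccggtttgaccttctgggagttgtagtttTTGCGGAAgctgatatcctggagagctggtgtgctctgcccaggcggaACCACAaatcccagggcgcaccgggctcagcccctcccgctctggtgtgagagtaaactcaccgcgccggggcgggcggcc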

How the data were processed

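The authors mapped paired reads of rRNA-depleted, stranded libraries to mm10 with TopHat and counted reads on transcript regions, with no version, annotation or counting strand given. The deposited values are raw read counts, not normalized. Counts of 43 repeated symbols (103 of 24481 lines) were summed, and no member was repeated. Genes were filtered with filterByExpr, scaled by TMM and tested in 1 model of the 3 groups over 10 libraries with edgeR 4.0.16 (R 4.3.3, quasi-likelihood F test, two-sided), with Benjamini-Hochberg adjustment over 18727 genes and a threshold of 0.05. The common dispersion was 0.0752. The prior count for log2 CPM was 2. The intervals come from the fit's SE.

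Alternatives were DESeq2 1.42.0, limma 3.58.1 voom with quantile normalization, total counts, upper-quartile scaling, 2 other filters (none beyond 1 read, and a minimum count of 30), robust dispersions, 2 groups alone, covariates for library numbers and Y-linked genes, a replicate block and each library left out. Relative values were repeated with a prior count of 0.5 and the median of the markers. Named genes are the 9 members, every called gene of the 3 lists, at most 4 uncalled ones by mean level (all 7 for the targets), relatives below the filter, up to 3 genes most like each member, the most abundant marker of most lists, markers at 0, markers picked after their values were seen, and App, Xist and 4 Y-linked genes. Members and lists were chosen with earlier results of these data known.

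Same-numbered libraries were checked for pairing by the correlation, across genes, of deviations from the group means. In APP/PS1+N-AS against APP/PS1, r was 0.278, 0.142 and 0.309 for the same numbers. For different numbers within the same set of library numbers it was 0.197, 0.173 and 0.320, and between the sets it was −0.341 to −0.143. The values thus do not separate pairing by replicate number from the sets of library numbers. The replicate block left the calls there at 0 members and 0 genes. Protein sequences were left out, as no table of them was at hand.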

Additional observations from a re-analysis of the deposited data

Results flagged for a closer look

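The summed level of 5 neutrophil markers was 93.2 CPM in APP/PS1 3, far from 2.95 to 7.68 CPM in the other 3 APP/PS1 libraries, with S100a9 the most abundant marker. The gap was 0.948 of the range of the group, above Dixon's critical value for 4 libraries. Among 24 measures tested in this way it is 1, and chance gives about 1 in 20. No member stood out in the same way in APP/PS1, where the largest gap was 0.785 of the range, for Sall1 in the same library. Groups of 3 were not tested.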

How the results depend on the processing

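Members called in APP/PS1 against WT (5) ranged from 3 to 5 with 1 library left out, with 3 without WT 1, WT 2, APP/PS1 3 or APP/PS1 4, and were 2 with the replicate block and 0 with the Y-linked covariate. Spi1 and Cebpa kept the call with each library left out and under every alternative except the Y-linked covariate, with log2 fold changes of 1.22 to 1.72 and 1.39 to 2.15. The 9 members gave 4 to 6 calls under the other alternatives. Genes called in this comparison (649) were 3221 at an unadjusted p under 0.05, 1362 with DESeq2, 326 with the replicate block, 1055 with library numbers as a covariate, 78 with the Y-linked covariate, 410 with the 2 groups alone and 299 to 923 with 1 library left out (299 without APP/PS1 3 or APP/PS1 4, 923 without WT 3). The covariates and the 2 groups alone use up degrees of freedom; beyond that, the cause was not tested, here or for the values below.

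In APP/PS1+N-AS against APP/PS1, members called (0) were 2 at an unadjusted p under 0.05 and 0 in every other fit, and genes called (0) were 1653 unadjusted, 79 with DESeq2 and 0 to 1 with 1 library left out (1 without APP/PS1+N-AS 1). In APP/PS1+N-AS against WT, members called (0) were 4 unadjusted, 3 with DESeq2 and 0 to 2 with 1 library left out (2 without APP/PS1+N-AS 3). Genes called there (35) were 1261 unadjusted, 187 with DESeq2, 20 with voom, 5 with the replicate block, 64 with library numbers, 23 with the Y-linked covariate, 2 with the 2 groups alone and 1 to 116 with 1 library left out (1 without WT 2, 116 without APP/PS1+N-AS 3).

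Leaving out WT 3 and APP/PS1+N-AS 3 together, chosen after seeing the data, gave 1058, 1 and 163 genes in the 3 comparisons in that order, and 6, 0 and 3 members (Spi1, Irf8 and Cebpa in the last).

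The sign of some log2 fold changes turned. Mef2c in APP/PS1 against WT was 0.083 with voom, 0.016 with the replicate block, 0.021 with the Y-linked covariate, 0.41 without WT 3 and APP/PS1+N-AS 3, and −0.29 to 0.41 with 1 library left out. Its range was −0.24 to 0.0061 in APP/PS1+N-AS against APP/PS1 and −0.39 to 0.31 against WT, where it was 0.17 without both libraries. Runx1 in APP/PS1+N-AS against APP/PS1 was −0.013 with total counts, −0.0094 with voom, and −0.083 to 0.16 with 1 library left out. Bhlhe40 with the Y-linked covariate was 0.034, −0.0098 and 0.024 in the 3 comparisons, and −0.18 to 0.15 in APP/PS1+N-AS against WT with 1 library left out. Runx1t1 in that comparison was 0.0054 without WT 3 and APP/PS1+N-AS 3.

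In the other comparisons, the labels do not say whether shared replicate numbers mark pairs, and the correlations do not settle it. Same-numbered libraries had r of −0.485, 0.441 and −0.010 in APP/PS1 against WT and −0.136, 0.348 and 0.240 in APP/PS1+N-AS against WT. The mean r of same-numbered and of other pairs was −0.018 and 0.006 in APP/PS1 against WT. In APP/PS1+N-AS against WT it was 0.151 and −0.075. The block ended the edgeR calls of Irf8 (adjusted p = 0.0673), Runx1 (0.0886) and Mitf (0.0893) in APP/PS1 against WT.

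The lowest read count of any member was 39, for Spi1 in WT 1, and whether more reads would narrow the intervals was not tested. The groups hold 3 or 4 libraries each. Sex-linked transcripts and genotype cannot be told apart, the cells were not sorted, and RNA levels do not measure factor activity.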
